A study of Mus musculus with 6 samples.

Results

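Translation initiation factors (eIFs) were compared between fetal liver erythroid progenitors that carry a DNA-binding mutant of SCL and wild-type progenitors. The group holds every array probe whose gene symbol starts with Eif1 to Eif6, leaving out the Eif2ak kinases, Eif4ebp1 and the sex-linked members Eif1ax, Eif1ay, Eif2s3x and Eif2s3y. The rule gave 80 of 46632 probes, for 43 of 17711 named genes. Of these, 58 probes of 37 genes had signal above background on enough arrays to be tested. The other 6 genes (Eif2s3x-ps1, Eif3m, Eif4e, Eif4e1b, Eif4e3 and Eif5a2) were detected on no array.

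RNA was hybridised to 6 Illumina bead arrays of 1 colour. One group of 3 arrays came from SclRER/RER progenitors, homozygous by their label for an SCL allele with mutant DNA binding, and the other 3 came from wild-type (WT) progenitors. The labels give strain C57Bl/6 and stage E12.5 for both groups. Fetal liver cells of both genotypes spent 3 days in expansion culture and were depleted of cells bearing Ter119, a marker of maturing red cells. Whether arrays of 1 genotype stand for different embryos or cultures is not stated in the labels, so each p-value covers the spread among these samples alone, and that spread may be technical in part. Arrays of a genotype were not all repeats of 1 RNA sample: Xist, the transcript of the inactive X chromosome, was at 5.89, 11.01 and 10.45 on SclRER/RER arrays 1 to 3, below detection on the first, and at 10.96, 8.996 and 10.59 on WT arrays 1 to 3.

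Initiation brings the small ribosomal subunit, the initiator tRNA and the mRNA together at the start codon. The eIF4F complex binds the mRNA cap and unwinds the leader, eIF2 carries the initiator tRNA with GTP and is recharged by eIF2B, eIF3 bridges the mRNA and the small subunit, and eIF1, eIF1A and eIF5 govern start codon choice before eIF5B joins the large subunit. In erythroid cells the pathway is known for its control by haem, through a haem-regulated kinase that phosphorylates eIF2. SCL, the product of Tal1, is a transcription factor of the helix-loop-helix family that pairs with E proteins and binds the DNA motif called the E-box.

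Mean signal lay between 384.7 and 546.4 intensity units, 11084 to 12678 probes were detected per array, and between 55 and 60 of the 80 eIF probes were. Of the 10 erythroid progenitor markers listed, 9 had a probe and all 9 were measured above background. Their summed intensities were 112300 to 127000 in SclRER/RER and 117900 to 125300 in WT. Globin genes Hba-a1, Hbb-bs and Hbb-bt made up most of these sums, at group means of 14.74 to 15.00 (log2 intensity). The highest value on each array was 15.26. By limma 1 of the 9 was called lower, the erythropoietin receptor gene Epor, with a difference of -0.54 (SE 0.11, adjusted p = 0.0198). Differences of the others on their brightest probes ran from -0.48 for Tfrc to 0.33 for Klf1, with none called. Other kept probes of Hbb-bs and Hbb-bt differed by -2.86 to 0.18, also with none called. The lowest, a dimmer Hbb-bt probe, gave 10.03, 5.74 and 6.96 in SclRER/RER and 10.37, 10.33 and 10.60 in WT (SE 0.88, limma adjusted p = 0.102). None of the 5 macrophage or 3 lymphoid markers with a probe was measured above background, and of 6 hepatocyte markers 1 was, Apoa1. Of 4 endothelial markers 1 was, Kdr, at 94.88 to 99.75 in SclRER/RER and 91.94 to 144.4 in WT, and it was not called. Neutrophil markers were measured for 5 of 6, with 3 lower in SclRER/RER and sums of 3538 to 7721 against 5794 to 6439 in WT. Megakaryocyte markers were measured for 2 of 5, both lower (219.2 to 310.9 against 632.8 to 996.5), and mast cell markers for 1 of 5, Cpa3, which was higher (144.6 to 173.2 against 55.61 to 91.69) and detected on 1 of the 3 WT arrays. Mean Tal1 mRNA (log2 intensity ± SD, n = 3) was 12.75 ± 0.04 in the mutant group and 12.67 ± 0.12 in WT (difference 0.08, SE 0.11, limma adjusted p = 0.768), and the mutation alters the protein and need not alter this level.

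No initiation factor gene passed the test for a difference between SclRER/RER and WT. Of 37 genes tested on their brightest probe, 0 rose and 0 fell, where 453 of 6855 genes tested on the array (6.61%) were called, 3.57% higher and 3.03% lower. The test was limma's moderated linear model with Benjamini-Hochberg adjustment, at an adjusted p below 0.05. At an unadjusted p below 0.05 there was 1 eIF gene, Eif4enif1, against 19.0% of all genes. Over all 58 eIF probes tested, 0 passed and 2 had an unadjusted p below 0.05, against 6.59% called and 19.6% at an unadjusted p below 0.05 of all 11578 kept probes. In bulk RNA, fewer cells of a type and less RNA per cell cannot be told apart.

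The differences were small, with errors close to those of all genes. Differences (SclRER/RER minus WT, log2 intensity) ran from -0.29 to 0.25 with a median of -0.03, beside a median of 0.02 over all genes tested. Of the 37 genes, 16 lay above 0 and 21 below, and 31 above and 6 below with median scaling of the arrays, which moved the median of all genes to 0.13. In the main setting the 95% intervals of the single genes together spanned -0.57 to 0.50. All 37 thus lay within 1.5-fold in either direction, as did 69.4% of all genes. With median scaling the differences ran from -0.18 to 0.37, and their intervals are not given here. The median size of a difference was 0.09 for eIF genes and 0.15 for all genes, with a median standard error (SE) of 0.13 and 0.14. The eIF genes were well above background, with a median level of 11.22 to 11.30 (log2 intensity) on the 6 arrays beside 9.11 to 9.17 for all genes tested, and the part of signal strength in these sizes was not tested. The groups did not overlap for 3 of the 37 genes (Eif4enif1, Eif4g2 and Eif4g3), where 25.4% of all genes tested had groups that did not overlap.

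**Figure D1:**
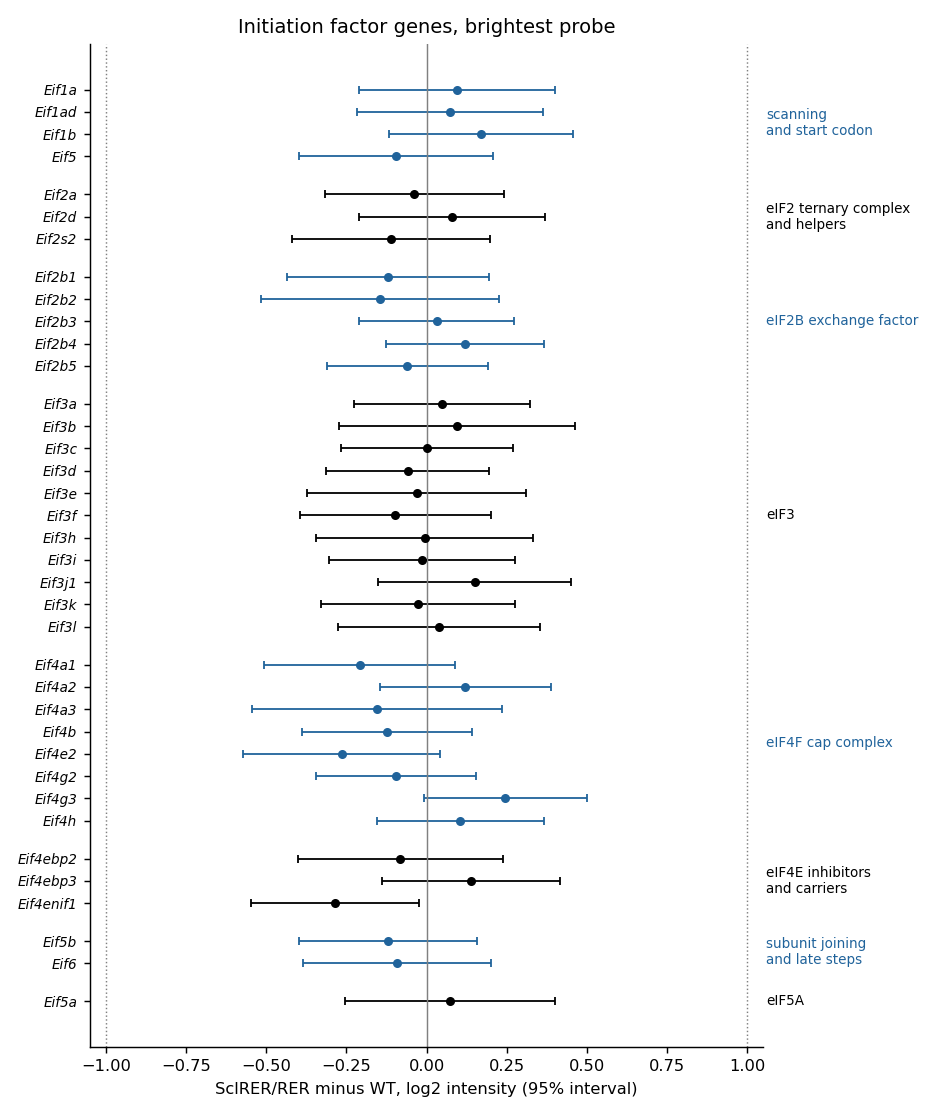
Difference between SclRER/RER and WT on the horizontal axis (log2 intensity, brightest probe of each gene, 3 arrays per genotype) for the 37 initiation factor genes tested, grouped by role. Points are the estimates and bars the 95% intervals. Dotted lines mark 2-fold, and every bar stays inside them.

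**Figure D2:**
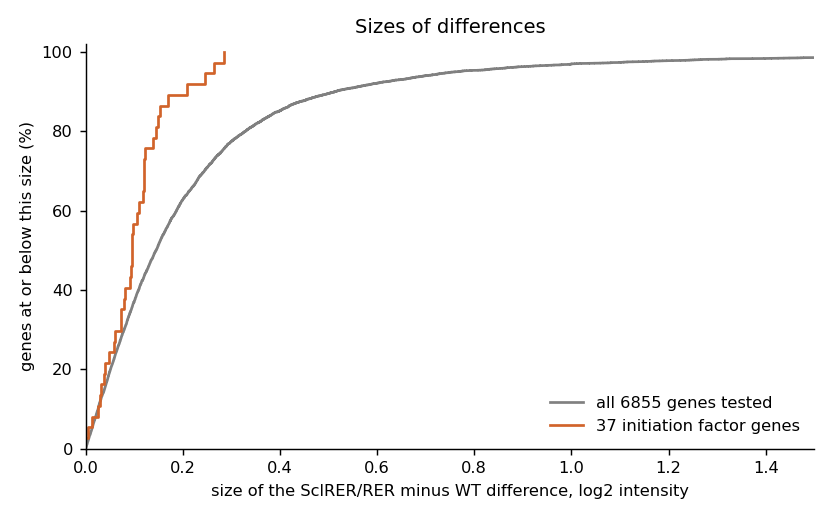
Share of genes (vertical axis, percent) whose difference between SclRER/RER and WT is at or below a given size (horizontal axis, log2 intensity, shown up to 1.5). The line of the 37 initiation factor genes ends at 0.29, while that of all 6855 genes tested goes on beyond the axis.

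Genes listed under the cap-binding complex, among them relatives of its subunits such as Eif4a3, held 5 of the 10 largest differences. Of 8 genes tested here 0 passed, with differences from -0.26 to 0.25. Eif4g3, one of the scaffold proteins that link cap, helicase and ribosome, had the largest positive difference. Its values were 10.55, 10.33 and 10.41 on SclRER/RER arrays 1 to 3 and 10.20, 10.16 and 10.20 on WT arrays 1 to 3 (log2 intensity). All 3 SclRER/RER arrays lay above all WT arrays, by a difference of 0.25 (SE 0.11, 95% interval -0.01 to 0.50, limma adjusted p = 0.268). Eif4g2, a scaffold relative that lacks the cap-binding partner's site, had values of 11.05, 11.20 and 11.22 in SclRER/RER and 11.22, 11.30 and 11.23 in WT. The groups lay side by side without overlap, with a difference of -0.09 (SE 0.11, limma adjusted p = 0.723). Its other kept probes differed by -0.19 (SE 0.14) and -0.54 (SE 0.26), both with overlapping groups.

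Eif4e2, a cap-binding protein that can repress translation, stood at 12.18, 12.24 and 12.52 in SclRER/RER and 12.62, 12.69 and 12.42 in WT. SclRER/RER array 3 lay above WT array 3, so the groups overlapped, and the difference was -0.26 (SE 0.14, 95% interval -0.57 to 0.04, limma adjusted p = 0.334). Its other kept probe differed by 0.15 (SE 0.14), in the opposite direction. Eif4a1, the main helicase of the complex, had values of 11.77, 11.89 and 12.13 in SclRER/RER and 12.06, 12.25 and 12.10 in WT. SclRER/RER array 3 lay within the WT range, and the difference was -0.21 (SE 0.13, limma adjusted p = 0.451). Eif4a3, the related helicase of the exon junction complex, differed by -0.15 (SE 0.17), and Eif4b, which stimulates the helicase, by -0.12 (SE 0.12).

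Eif4a2, the second cytoplasmic helicase, was read by 3 kept probes, each with a positive difference. The brightest differed by 0.12 (SE 0.12, limma adjusted p = 0.66). The next gave 10.06, 10.20 and 10.14 in SclRER/RER against 9.84, 10.001 and 9.82 in WT, without overlap (0.24, SE 0.11, limma adjusted p = 0.275). The dimmest gave 7.92, 7.59 and 7.47 against 7.06, 7.12 and 7.45, also without overlap (0.45, SE 0.16, limma adjusted p = 0.158). The probes share the same RNA samples, so they are not 3 independent tests. Eif4e, the cap-binding protein itself, was below detection on all 6 arrays, at 5.33, 5.05 and 4.65 in SclRER/RER and 6.15, 5.86 and 5.77 in WT, and no difference is given for it.

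Among the proteins that hold or carry eIF4E, 0 of 3 genes passed. Eif4enif1, the carrier that takes eIF4E into the nucleus and into cytoplasmic granules, had the largest difference of all 37 genes and the lowest adjusted p. Its values were 8.65, 8.85 and 8.83 in SclRER/RER and 8.97, 9.11 and 9.11 in WT. Every SclRER/RER array lay below every WT array, with a difference of -0.29 (SE 0.11, 95% interval -0.55 to -0.02, limma adjusted p = 0.211). The sign of this difference and of that of Eif4g3 was kept under all 18 alternative settings tried. So were the signs of Eif1b, Eif4a1, Eif4a3, Eif4b, Eif4e2 and Eif4ebp3, also among the 10 largest differences. All settings draw on the same 6 arrays. Differences were 0.14 (SE 0.12) for Eif4ebp3 and -0.08 (SE 0.14) for Eif4ebp2, both inhibitors that block eIF4E from the scaffold.

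**Figure D3:**
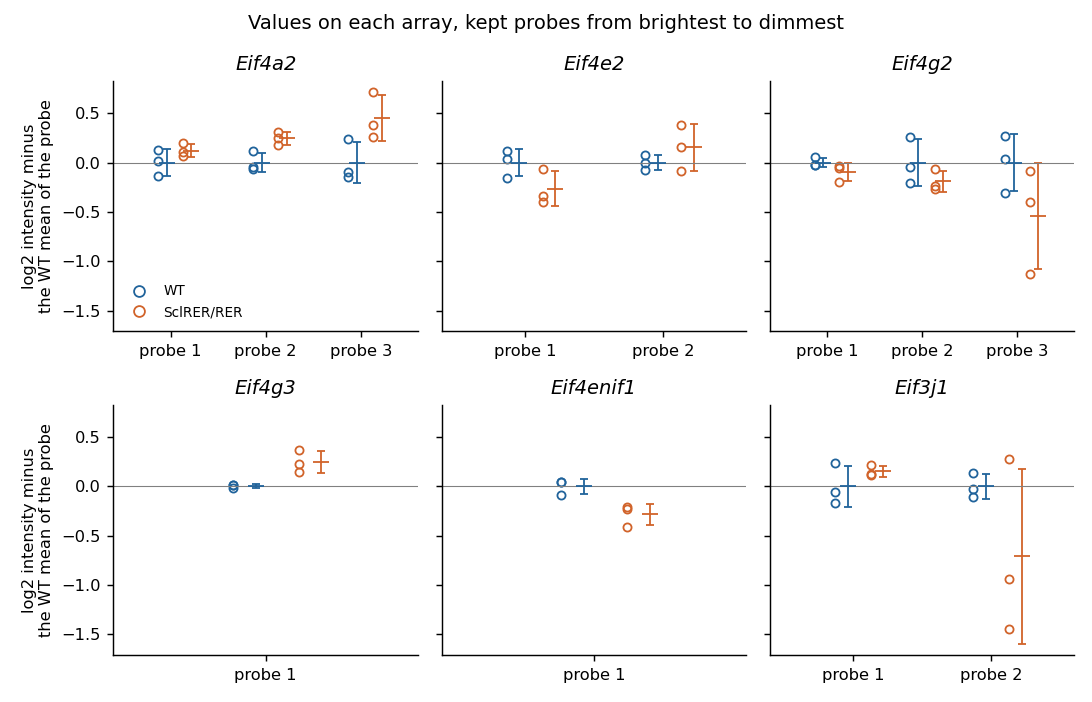
Values on each array for kept probes of 6 genes, as log2 intensity minus the WT mean of the same probe (vertical axis), with probes of a gene ordered from brightest to dimmest. Circles are the 3 arrays of a genotype and bars the mean ± SD. Groups do not overlap for Eif4g3, Eif4enif1, the brightest Eif4g2 probe and the dimmer Eif4a2 probes. The widest spread is that of the second Eif3j1 probe in SclRER/RER.

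The upstream sequences of Eif4a2, Eif4enif1 and Eif4g3 are shown because their groups did not overlap, on the brightest probe of Eif4enif1 and Eif4g3 and on 2 of 3 kept probes of Eif4a2, and because the mutant SCL is altered in its DNA binding. Eif4g2 is not shown. Each is the 250 bases before the most upstream RefSeq start of the gene in GRCm38.p6, plus strand, and capitals mark matches to the E-box letters CANNTG. They come from chr16:23107218-23107467 for Eif4a2, chr11:3202103-3202352 for Eif4enif1 and chr4:137993205-137993454 for Eif4g3.
Eif4a2: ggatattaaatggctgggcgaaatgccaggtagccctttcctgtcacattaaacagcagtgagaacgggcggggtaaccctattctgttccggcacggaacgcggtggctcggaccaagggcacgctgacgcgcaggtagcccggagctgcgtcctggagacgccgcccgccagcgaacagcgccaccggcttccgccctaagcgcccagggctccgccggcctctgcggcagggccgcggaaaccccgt
Eif4enif1: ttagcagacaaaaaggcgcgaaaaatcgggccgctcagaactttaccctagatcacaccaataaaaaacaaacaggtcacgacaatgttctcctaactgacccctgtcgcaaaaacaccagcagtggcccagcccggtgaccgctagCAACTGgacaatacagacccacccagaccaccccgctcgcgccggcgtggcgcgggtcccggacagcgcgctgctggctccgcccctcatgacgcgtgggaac
Eif4g3: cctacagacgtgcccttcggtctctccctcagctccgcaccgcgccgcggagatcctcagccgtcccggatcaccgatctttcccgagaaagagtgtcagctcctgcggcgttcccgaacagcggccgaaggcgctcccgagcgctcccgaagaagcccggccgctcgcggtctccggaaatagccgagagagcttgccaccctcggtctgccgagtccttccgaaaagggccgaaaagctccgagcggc

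Only Eif4enif1 of these 3 held a match, 1 in number. Over the 32 of 43 initiation factor genes with an entry in the RefSeq table, CANNTG was found on either strand in 16 windows (50.0%), against 66.1% of 27025 windows of the same length for all genes. The narrower E-box CAGATG, whose matches are also matches to CANNTG, was found in 0 of the 32 and in 14.5% of all windows, and the GATA letters AGATAA in 1 of the 32 and in 10.2%. The windows differ in base composition, with a median of 61.6% G and C for the initiation factors and 52.0% for all genes. A match or its absence in such a window is a description of letters and says nothing on binding.

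Among eIF2, its helpers and eIF2B, no gene tested passed either. Of 3 genes tested from eIF2 and its helpers, 0 passed. The difference was -0.11 (SE 0.14) for Eif2s2, the beta subunit and the only eIF2 subunit tested. The helpers, which are not subunits of eIF2, differed by -0.04 (SE 0.12) for Eif2a and 0.08 (SE 0.13) for Eif2d. No probe was named for Eif2s1, the subunit that is phosphorylated, so it was not analysed here. Of the 5 eIF2B subunits, 0 passed. Eif2b5, the catalytic subunit, had values of 11.80, 11.89 and 12.00 in SclRER/RER and 11.96, 12.00 and 11.91 in WT. The groups lay over each other, with a difference of -0.06 (SE 0.11, 95% interval -0.31 to 0.19, limma adjusted p = 0.837). Eif2b2 had the largest difference of the complex, at -0.15 (SE 0.16), with the lowest value, 9.68, on SclRER/RER array 1. Eif2b3 lies on chromosome 4 with Tal1, with 46 protein-coding genes between them in RefSeq order, and differed by 0.03 (SE 0.11). Eif3i and Eif4g3 also lie on chromosome 4, with 239 and 395 protein-coding genes between each and Tal1. Eif3i differed by -0.01 (SE 0.13) and Eif4g3 by 0.25, as given above.

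On their brightest probes the eIF3 subunits lay close together. Of 12 genes with a probe 11 were tested and 0 passed, with differences from -0.10 to 0.15 and a median size of 0.04. Eif3a, the largest subunit and scaffold of the complex, gave 10.78, 10.57 and 10.70 in SclRER/RER and 10.73, 10.68 and 10.50 in WT. The values of both genotypes were interleaved (0.05, SE 0.12, 95% interval -0.23 to 0.32, limma adjusted p = 0.887). Eif3f lay at -0.10 (SE 0.13) and Eif3c at 0.00 (SE 0.12). The other kept Eif3c probe, which was dimmer, differed by -0.37 (SE 0.21), with overlapping groups.

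Eif3j1, a loosely bound subunit, had the largest eIF3 difference and the least agreement between probes. Its brightest probe gave 10.76, 10.85 and 10.76 in SclRER/RER and 10.47, 10.58 and 10.87 in WT, a difference of 0.15 (SE 0.13, limma adjusted p = 0.619). WT array 3 was the highest of the 6. A dimmer probe gave 7.77, 6.05 and 6.55 against 7.39, 7.64 and 7.46, a difference of -0.71 (SE 0.37, 95% interval -1.54 to 0.13, limma adjusted p = 0.341), and it spread more between SclRER/RER arrays than between genotypes. The mouse has a near-identical copy of this gene, Eif3j2, so signal of the pair cannot be assigned with certainty.

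Factors of start codon choice, subunit joining and the final steps also did not pass. Among the first, 0 of 4 genes passed. Eif1b, a close relative of eIF1, gave 12.44, 12.07 and 12.30 in SclRER/RER and 12.15, 12.06 and 12.09 in WT, with 2 of 3 SclRER/RER arrays above the WT range (0.17, SE 0.13, limma adjusted p = 0.54). Eif5, which triggers GTP hydrolysis by eIF2, gave 10.86, 10.83 and 10.96 against 11.03, 11.16 and 10.75, with the WT values on both sides of the mutant ones (-0.09, SE 0.13, limma adjusted p = 0.777). No probe was named for Eif1 or for the scaffold gene Eif4g1, and neither was analysed here.

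Eif5b, the GTPase that joins the subunits, gave 12.95, 12.70 and 12.95 in SclRER/RER and 12.94, 13.10 and 12.93 in WT, with overlap (-0.12, SE 0.12, limma adjusted p = 0.672). A dimmer kept Eif5b probe differed by 0.20 (SE 0.12), in the opposite direction. Eif6, which keeps free large subunits from joining too early, gave 11.56, 11.51 and 11.86 against 11.66, 11.74 and 11.80, with SclRER/RER array 3 the highest of all (-0.09, SE 0.13, limma adjusted p = 0.776). Eif5a, the hypusine-bearing factor now known for its part in elongation, gave 12.86, 12.93 and 13.14 against 12.66, 12.99 and 13.06, with overlap (0.07, SE 0.14, limma adjusted p = 0.85). Its other kept probe differed by 0.08 (SE 0.14).

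Probes of the same gene measured the size of disagreement within the arrays. Of 18 genes with several kept probes, all probes lay above 0 in 4 genes, all below in 6 and on both sides in 8. The median gap between the highest and lowest difference of a gene was 0.11, and the widest was 0.86, for Eif3j1. The 49 probes with a level of 8 or more differed by -0.29 to 0.25, and the 9 dimmer ones by -0.71 to 0.45 with a median SE of 0.16 against 0.13.

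**Figure D4:**
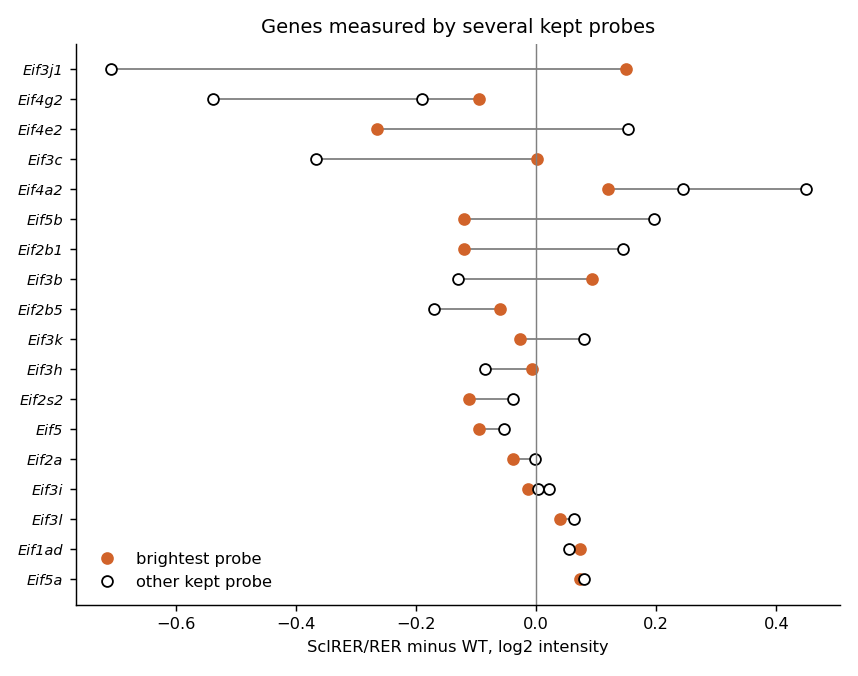
Difference between SclRER/RER and WT (horizontal axis, log2 intensity) for each kept probe of the 18 initiation factor genes that have several, ordered by the gap between probes. Filled circles are the brightest probe of a gene and open circles its others. The widest gap, 0.86, is that of Eif3j1.

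Other genes of translation were read beside the initiation factors, from a list of 43 genes that covers elongation, termination, poly(A) binding, start-site regulators, cap and mTOR signalling, the eIF2 phosphatase, hypusine synthesis and the argonautes once named Eif2c. Among the 35 tested, 1 rose and 1 fell, beside 3.57% higher and 3.03% lower among all genes, with a median difference of -0.04. The 7 elongation genes differed by -0.27 to 0.20 and the 2 genes of hypusine synthesis by -0.23 and -0.05, with 0 called in either. The riser was Gspt2, a relative of the release factor gene Gspt1. Its values were 9.43, 9.68 and 8.79 in SclRER/RER and 8.02, 7.997 and 8.04 in WT, with no overlap and a wider spread in SclRER/RER. It rose by 1.28 (SE 0.21, limma adjusted p = 0.00821), and the adjusted p was 0.0611 with no detection filter and 0.0514 without WT array 2. Gspt1 differed by -0.14 (SE 0.11), and whether the Gspt2 probe also reads this related gene was not tested. Gspt2 lies on the X chromosome.

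The gene that fell was Pabpc4, one of the proteins that bind the poly(A) tail. Its values were 6.84, 6.81 and 6.90 in SclRER/RER and 7.25, 7.80 and 7.69 in WT, with no overlap. It fell by 0.73 on the log2 scale (SE 0.15, limma adjusted p = 0.026). The adjusted p rose to 0.0508 when SclRER/RER array 1 was left out, and to 0.0798, 0.127 and 0.113 when the omitted array was SclRER/RER 2, WT 2 or WT 3. It was 0.266 with median scaling and 0.0956 with no detection filter. Pabpc4 lies on chromosome 4 with Tal1, with 146 protein-coding genes between them in RefSeq order. Pabpc1, the main protein of this family, differed by 0.19 (SE 0.16). The neutrophil, megakaryocyte and erythroid markers called lower and the mast cell marker called higher, given above, stand beside both calls, and their part in them was not tested.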

How the data were processed

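Per the file headers, the authors' main table gives unscaled signal intensity (linear) of 46632 probes on each array. The column the authors deposited beside each signal, headed as a detection p-value, rises with it and was read as a fraction, 1 minus the detection p. It did not follow the signals of WT array 3 (Spearman correlation 0.899, against 0.996 or more elsewhere), which received the mean score at the same rank on WT arrays 1 and 2. A further deposited table of quantile normalized intensity served as an alternative. The submitters' processing notes name limma with no further detail.

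Limma 3.58.1 (R 4.3.3) was used for normal-exponential background correction with control parameters inferred from detection p, offset 16, followed by quantile normalization and log2. A probe was kept where its detection p fell below 0.01 on 3 or more of the 6 arrays. Genotype was fitted with lmFit and eBayes and p-values were adjusted over all 11578 kept probes, after a check on simulated data. Probes took their symbols from the platform annotation, updated through gene identifiers in the GRCm38.p6 RefSeq table (29976 probes with 1 symbol, 10 with several, 16646 with none, 29921 matched). The brightest kept probe stands for a gene. Members and lists were chosen with earlier results of these data known. Named in full are genes past the threshold, the 10 largest differences and 11 core factors, and among other translation genes those past the threshold. Eif4a2, Eif4g2 and other genes outside that rule were named after their values were seen. The number of arrays limits the precision.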

Additional observations from a re-analysis of the deposited data

How the results depend on the processing

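Under all 18 alternatives 0 initiation factor genes were called, higher or lower, and the lowest adjusted p of any was between 0.109 (Eif4e, tested only with no detection filter) and 0.873. Median scaling moved the median of all genes to 0.13 and that of the initiation factors to 0.12, with 31 of 37 genes above 0 and 239 genes called on the array, 144 higher and 95 lower, against 245 and 208. Array weights gave 709 genes called. Leaving out 1 array gave between 192 and 606 genes called, the lowest without WT array 2 (192), WT array 3 (217) and SclRER/RER array 2 (299), and a median of the initiation factors between -0.0455 and 0.0183, above 0 without WT array 2. Several uncalled differences changed sign, those of Eif3j1 and Eif2b2 among the 10 largest. Under median scaling they were 0.0828 for Eif2b5, 0.0302 for Eif5, 0.0145 for Eif5b and 0.0472 for Eif6. With the mean of kept probes they were -0.28 for Eif3j1 and 0.0381 for Eif5b. Eif3a was at -0.0124 with array weights and between -0.0216 and 0.104 on leaving out 1 array, Eif2b2 between -0.269 and 0.00207 and Eif5a between -0.0482 and 0.15. The cause was not tested. Between arrays of the same replicate number, correlations of deviations were 0.161, -0.027 and 0.0736. SclRER/RER arrays 1 and 3 matched the WT array of their own number best, and SclRER/RER array 2 matched WT array 3. So few values cannot settle whether replicate numbers pair the arrays. The replicate block gave 0 initiation factor genes and 441 genes called, with a median of -0.03. A block for slide was not run, since the headers give none.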
